A study of Arabidopsis thaliana with 12 samples.

Results

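The miRNAs bound to ARGONAUTE1 (AGO1) were compared between 2 root cell layers of the ktn1-20 mutant (ktn1) of Arabidopsis thaliana. The comparison takes the 4 libraries whose titles name the ACL5 or EN7 line in ktn1, with 2 replicates each, of 12 libraries in the series. All miRNA entries of their files were used. An entry is 1 mature miRNA or several names that share a mature sequence. The ACL5 files list 185 entries and the EN7 files 180, of 240 in the series. Of these, 192 were above 0 in at least 1 of the 4 libraries and 134 in all 4.

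All 4 libraries come from roots of 9-day-old plants of the Col-0 ecotype that carry the ktn1-20 allele, grown on MS medium. KTN1 (AT1G80350) is the gene for the catalytic part of katanin, which severs microtubules. The groups differ in the transgene: GFP-AGO1 is expressed from the ACL5 promoter, active in procambium and developing metaxylem inside the stele, or from that of EN7, which drives expression in the endodermis around it. The fusion protein was pulled down with GFP-Trap beads and its small RNAs were sequenced. The same 2 lines in the wild type (WT), also with 2 replicates each, were used for the shared spread and for the comparison between genotypes. The labels do not say whether replicates came from separate plants or cultures, so p-values measure only the spread between these libraries.

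AGO1 (AT1G48410) holds most plant miRNAs and cleaves or represses the transcripts they pair with. Each miRNA is cut from a hairpin as a duplex: the guide strand is kept in AGO1, and the partner strand from the other arm is mostly discarded. In roots, miR165 and miR166 are made in the endodermis and move through plasmodesmata into the stele. There they lower transcripts of the HD-ZIP III transcription factors and so pattern the xylem. A GFP-AGO1 expressed in 1 layer therefore samples miRNAs made there and miRNAs that arrive there, and the measurement does not separate them.

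Values are RPM as deposited by the authors, which scale the reads of each library to a fixed total. The lowest value in each file was taken as 1 read, which gave denominators of 9096290 and 9366639 reads for the ACL5 ktn1 libraries and 13004041 and 10191562 reads for the EN7 ktn1 libraries. Of these reads, 2953763 and 3008256 were listed miRNAs in ACL5 and 7733775 and 5461986 in EN7. A level of 3 reads, taken as the floor, was 0.231 to 0.330 RPM. No control immunoprecipitation was analysed here, KTN1 transcript is not measured by a miRNA table, and a miRNA table holds no marker of a cell layer. The promoter names are therefore the only evidence of the layer, and fewer cells of a type cannot be told apart from less RNA per cell.

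The libraries of a layer were not equally alike. Across the 86 tested entries, the Spearman correlation of levels was 0.97 between the EN7 ktn1 replicates and 0.87 between the ACL5 ktn1 replicates. ACL5 ktn1 replicate 2 correlated at 0.90 with each EN7 ktn1 library, and ACL5 ktn1 replicate 1 at 0.73 with each. Of the 81 tested entries outside miR165/miR166, replicate 2 lay between replicate 1 and the EN7 mean for 49. It lay nearer to the EN7 mean than to replicate 1 for 38. Both counts are on log2 values after the rescaling described below. Results are therefore also given from the fits that leave out each ktn1 library in turn. In such a fit the remaining library of the layer is assumed to vary as the other groups do. Where 4 adjusted p-values follow each other below, they are without ACL5 ktn1 replicate 1, ACL5 ktn1 replicate 2, EN7 ktn1 replicate 1 and EN7 ktn1 replicate 2.

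In ktn1, the endodermal EN7 pool was dominated by miR165/miR166, and the ACL5 pool by miR159. The miR165/miR166 family took 57.9% and 64.8% of listed miRNA reads in the EN7 ktn1 replicates, against 4.46% and 4.69% in the ACL5 ktn1 replicates. The miR159 family, which targets GAMYB-like transcription factors, took 41.6% and 41.6% in ACL5 and 14.8% and 18.8% in EN7. Of the reads outside miR165/miR166, it took 43.5% and 43.6% in ACL5 and 35.2% and 53.5% in EN7, an overlap. The most abundant entry was miR159a in both ACL5 replicates (28.6% and 24.4%) and the miR166 guide in both EN7 replicates (39.2% and 44.0%). In ACL5, 9 entries held 90% of the miRNA reads in each replicate. In EN7, 6 and 5 entries did. Without miR165/miR166, 8 and 8 entries did so in ACL5 and 8 and 7 in EN7.

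**Figure D1:**
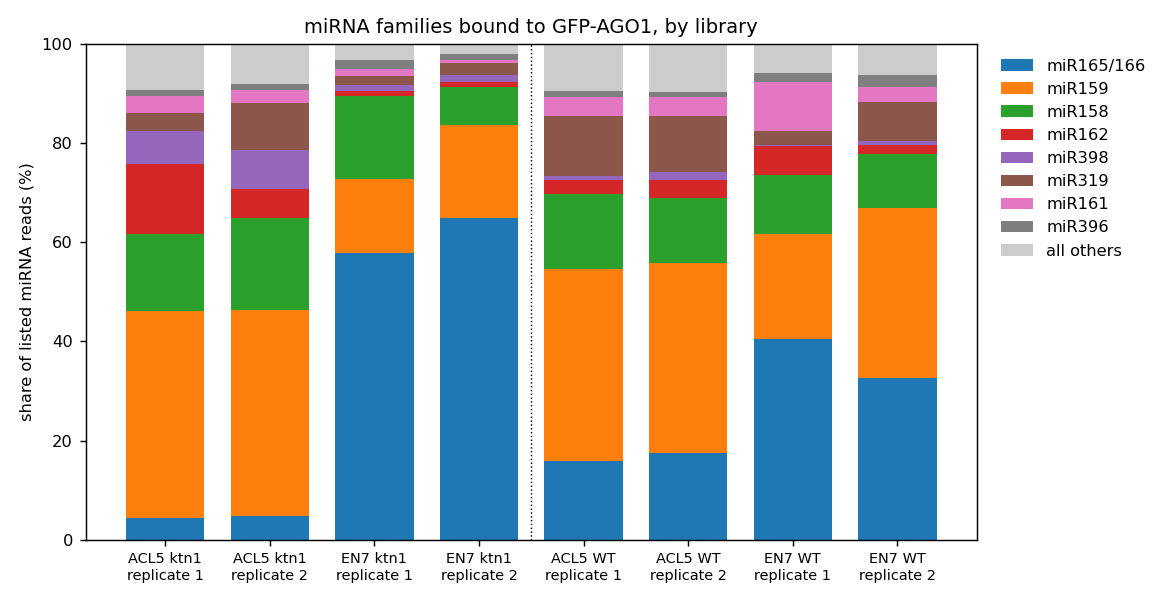
Stacked bars give the share of listed miRNA reads (%) taken by 8 families and all others in each of the 8 AGO1 libraries, with the 4 ktn1 libraries on the left of the dotted line. The miR165/miR166 segment fills 57.9% and 64.8% of the EN7 ktn1 bars and under 5% of the ACL5 ktn1 bars.

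This difference reached the summed miRNA values. Listed miRNAs made up 32.3% ± 0.251 (SD, n = 2) of the denominator reads in ACL5 ktn1 and 56.5% ± 4.16 (SD, n = 2) in EN7 ktn1, a 1.75-fold higher sum in EN7. Without the miR165/miR166 entries, the direction was opposite: 30.8% ± 0.292 (SD, n = 2) in ACL5 against 21.9% ± 4.39 (SD, n = 2) in EN7. The groups did not overlap in either sum. Each gave p = 0.333 in an exact two-sided permutation test, the smallest p that 2 against 2 libraries allow. Because every value is a share of a fixed denominator, a larger miR165/miR166 share leaves less for the other entries. The layers were therefore compared on the deposited RPM and again after each library was multiplied so that its sum outside miR165/miR166 was equal. The factors were 0.783 and 0.793 for the ACL5 ktn1 replicates and 0.969 and 1.29 for the EN7 ktn1 replicates. Rescaling moved the log2 difference (ACL5 minus EN7) of the median entry from 0.91 to 0.44, a shift of -0.48. Differences are to be read against these medians.

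As deposited, 14 of 86 tested entries (16.3%) had an adjusted p under 0.05 in limma, 11 higher (12.8%) and 3 lower (3.49%) in ACL5. After rescaling, 13 differed (15.1%), 8 higher (9.3%) and 5 lower (5.81%) in ACL5. At an unadjusted p under 0.05 there were 29 and 25. Of the calls, 11 were made on both scales. They include miR780.1, which reached the 10 RPM filter only in the 2 ACL5 ktn1 libraries and so had to differ. They also include miR394a/miR394b-5p and miR169b-3p, which reached this filter only in ACL5 libraries. The 3 made only as deposited were miR156a-5p and its copies, the miR162 guide and miR833a-5p, all higher in ACL5. The 2 made only after rescaling were miR822-5p and miR396b-5p, both lower in ACL5.

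**Figure D2:**
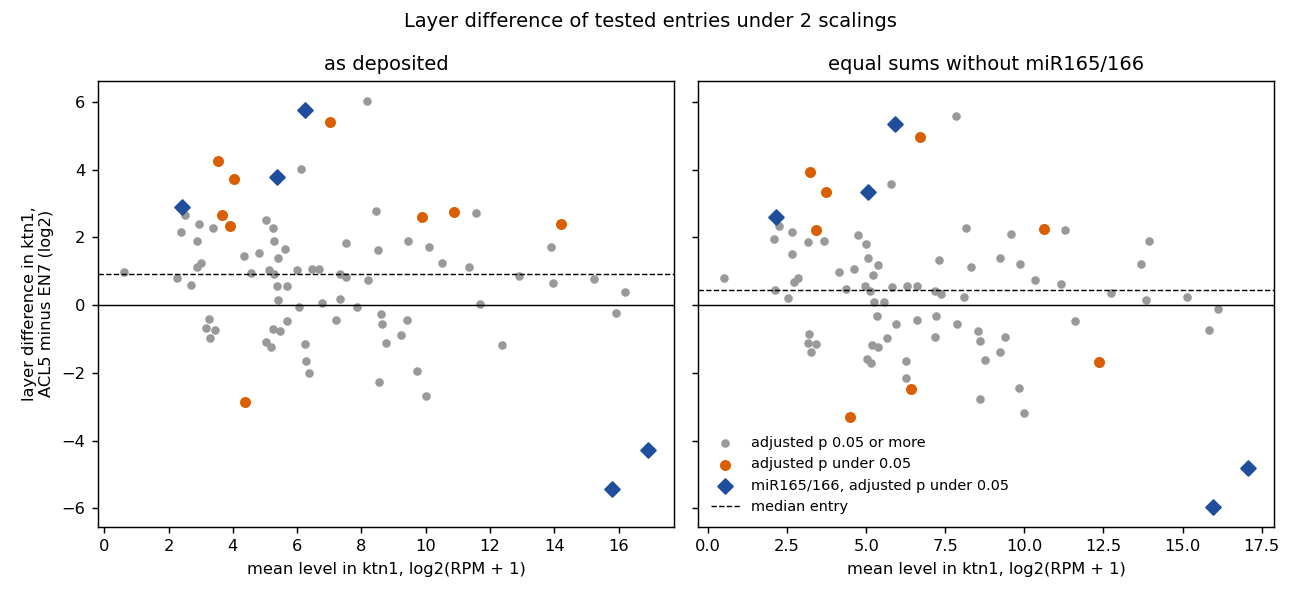
Each point is 1 of 86 tested entries, with its mean log2(RPM + 1) in the 4 ktn1 libraries on the x axis and its log2 difference between layers, ACL5 minus EN7, on the y axis, as deposited (left) and after rescaling to equal sums without miR165/miR166 (right). The dashed line at the median entry drops from 0.91 to 0.44, and the 2 miR165/miR166 guides stay at the bottom right on both scales.

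The replicates of the layers were free of overlap for more entries than the test called, but this is a weak criterion. With 2 against 2 libraries whose labels could be exchanged, an entry shows no overlap with probability 0.333, counting both directions. As deposited, the replicates of the layers did not overlap for 46 entries higher in ACL5 (53.5%) and 14 higher in EN7 (16.3%). After rescaling these were 34 (39.5%) and 25 (29.1%), so the split between directions depended on the scale. These counts, and the lack of overlap given for single entries and families, are therefore a description. Alone they are weak evidence of a layer difference. Without ACL5 ktn1 replicate 1, replicate 2 of it, EN7 ktn1 replicate 1 and replicate 2 in turn, 7, 15, 4 and 2 entries were called as deposited, and 5, 17, 2 and 2 after rescaling. A WT library feeds the shared spread and the filter, and the number of calls on both scales also changed when a WT library was left out. All 14 and all 13 called entries kept their direction in the 4 fits that left out a ktn1 library and could still test them. The 2 miR165/miR166 guides were the only entries called in all 8 of these fits on both scales.

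The miR165/miR166 guides, on the 3p arm, were higher in EN7 by a wide margin. The miR165 guide (miR165a-3p/miR165b, from AT1G01183 and AT4G00885) stood at 2581 and 2527 RPM in ACL5 ktn1 and at 111094 and 111570 RPM in EN7 ktn1. The miR166 guide (miR166a-3p and 6 names with the same sequence) stood at 11490 and 12461 RPM in ACL5 ktn1 and at 233082 and 235923 RPM in EN7 ktn1. For both, all EN7 replicates lay far above all ACL5 replicates, and replicates of a layer were close.

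The miR165 guide was 43.6-fold higher in EN7 (log2 difference -5.45, SE 0.21, limma adjusted p = 1.9e-06) and 62.5-fold higher after rescaling (-5.95, SE 0.32, adjusted p = 1.6e-05). The miR166 guide was 19.6-fold higher (-4.29, SE 0.15, adjusted p = 1.9e-06) and 28.1-fold higher after rescaling (-4.80, SE 0.28, adjusted p = 1.6e-05). The layers thus also differed in the mix of the 2 guides. miR165 made up 18.3% and 16.9% of both guides in ACL5 ktn1 and 32.3% and 32.1% in EN7 ktn1. In WT these shares were 16.5% and 17.0% in ACL5 and 25.7% and 26.4% in EN7. The guides are near identical in sequence and the mismatches allowed in mapping are not given in the sources used here, so the split between them is less certain than their sum.

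Summed over its 5 entries, the family stood at 14477 and 15053 RPM in ACL5 ktn1 and at 344180 and 347498 RPM in EN7 ktn1. The difference was 23.4-fold as deposited (log2 -4.55, SE 0.18, limma adjusted p = 5.4e-08) and 33.6-fold after rescaling (-5.05, SE 0.27, adjusted p = 5.5e-06). ACL5 ktn1 replicate 2, the ACL5 library nearest to EN7 in its other entries, had nearly the same level as replicate 1 here.

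The partner strands of the same hairpins, on the 5p arm, went the other way. miR165a-5p stood at 269 and 29.9 RPM in ACL5 ktn1 and at 0.692 and 0.687 RPM in EN7 ktn1, which are 9 and 7 reads. Every ACL5 replicate lay above every EN7 replicate, although the ACL5 replicates were far apart. The log2 difference was 5.76 (SE 0.98, limma adjusted p = 0.011) and 5.35 after rescaling (SE 0.97, adjusted p = 0.011). Leaving out a ktn1 library gave adjusted p-values of 0.011, 0.00082, 0.072 and 0.076 as deposited.

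miR166a-5p/miR166b-5p stood at 122.7 and 31.6 RPM in ACL5 ktn1 and at 3.54 and 3.63 RPM in EN7 ktn1. Its log2 difference was 3.79 (SE 0.70, limma adjusted p = 0.013) and 3.33 after rescaling (SE 0.71, adjusted p = 0.022). Leaving out a ktn1 library gave adjusted p-values of 0.030, 0.0037, 0.072 and 0.088 as deposited. miR166e-5p stood at 13.9 and 3.31 RPM in ACL5 ktn1 and rested on 2 and 0 reads in EN7 ktn1. Its log2 difference was 2.90 (SE 0.67, limma adjusted p = 0.029) and 2.61 after rescaling (SE 0.66, adjusted p = 0.042), on a scale that understates changes near 1 RPM. Leaving out a ktn1 library gave 0.086, 0.0078, 0.091 and 0.16 as deposited. All 3 partner strands were thus higher in the layer with the lower guide level.

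A ratio of partner to guide strand within a library does not depend on its scaling. Across 13 families with both arms measured, 1 (7.69%) had an adjusted p under 0.05 in limma for the layers, and 5 at an unadjusted p under 0.05. That family was miR165/miR166. Its partner strand made up 2.80% and 0.431% of the family in ACL5 ktn1 and 0.00127% and 0.00124% in EN7 ktn1, a log2 ratio difference of 9.51 (SE 0.98, adjusted p = 0.00061). The EN7 shares rest on 57 and 44 partner reads, the ACL5 shares on 3691 and 607. In WT the share was 2.14% and 3.19% in ACL5 and 0.516% and 0.533% in EN7. In WT seedlings it was 11.2% and 9.45%. These were whole seedlings 14 days old, and their total small RNA is not bound to AGO1 alone, so age and tissue differ too. In WT roots the EN7 partner reads were 5026 and 4498.

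**Figure D3:**
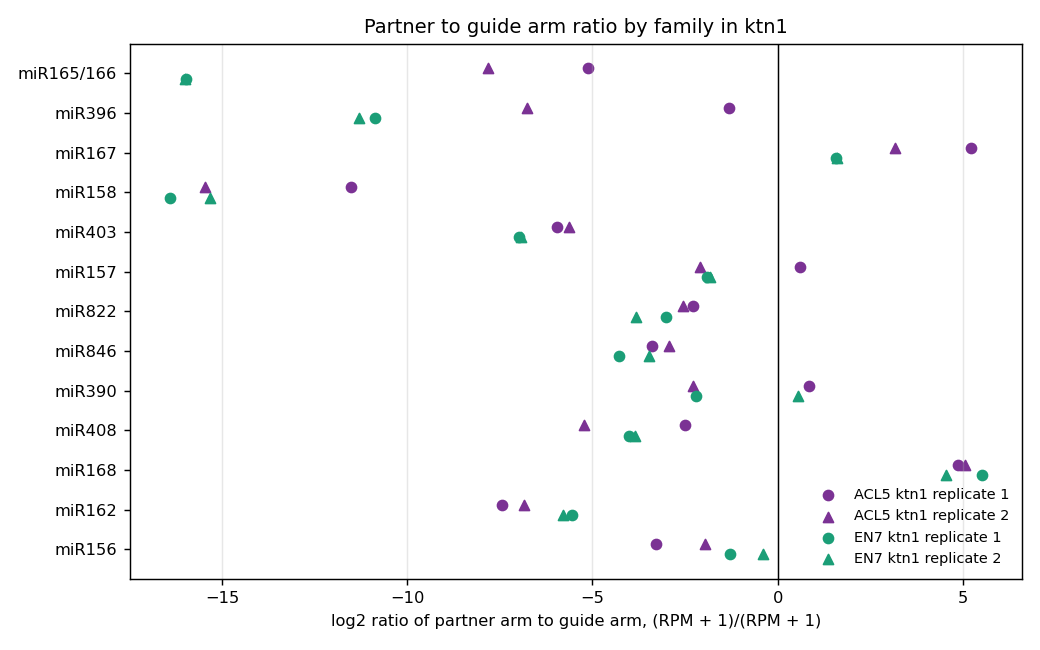
For each of 13 families, the log2 ratio of partner to guide arm, (RPM + 1)/(RPM + 1), is shown for each ktn1 library. Circles stand for replicate 1 and triangles for replicate 2. The guide arm is the more abundant one in WT seedlings. For miR168 that is the 3p arm, so its 5p arm, the major one in these libraries, is plotted as the partner. The miR165/miR166 ratio lies near -16.0 in both EN7 libraries and at -5.11 and -7.83 in the ACL5 libraries.

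In the other families the arm ratios did not pass the test. The layers did not overlap for 6 families higher in ACL5 (46.2%), namely miR165/miR166, miR167, miR396, miR403, miR822 and miR846, and for 2 higher in EN7 (15.4%), miR156 and miR162. For miR396, the 3p partner made up 28.7% and 0.890% in ACL5 ktn1 and 0.0433% and 0.0214% in EN7 ktn1 (log2 ratio difference 7.06, SE 2.32, limma adjusted p = 0.12). For miR167, whose targets are the auxin response factors ARF6 and ARF8, the 5p arm is the major one in seedlings, where the 3p arm held 3.80% and 7.27%. In the root AGO1 libraries the 3p arm was the major one, at 97.4% and 90.0% in ACL5 ktn1 and 75.0% and 75.4% in EN7 ktn1 (difference 2.60, SE 1.02, adjusted p = 0.12). For miR156 the 3p partner took 9.29% and 20.3% in ACL5 ktn1 and 29.1% and 43.0% in EN7 ktn1 (difference -1.78, SE 0.65, adjusted p = 0.12).

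Outside the miR165/miR166 family, miR394 had the largest layer difference that passed the test. It reached the 10 RPM filter only in ACL5 libraries. Its p-values therefore belong to an entry that was selected through the layer where it was high. miR394a/miR394b-5p, made from AT1G20375 and AT1G76135, targets the F-box gene LCR and acts as a mobile signal in the shoot meristem. It stood at 180.6 and 322.4 RPM in ACL5 ktn1 and at 7.38 and 2.84 RPM in EN7 ktn1, so the layers were far apart. This was 49.2-fold as deposited (log2 5.42, SE 0.80, limma adjusted p = 0.006) and 36.7-fold after rescaling (4.95, SE 0.83, adjusted p = 0.0088). Leaving out a ktn1 library gave adjusted p-values of 0.030, 0.028, 0.028 and 0.060 as deposited. It was called in 7 of the 8 fits that left out a library, and in 6 after rescaling. In WT the difference was 4.56 (adjusted p = 0.022).

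Of the products of the miR780 hairpin (AT4G14811), miR780.2 was higher in ACL5. miR780.1, known for cleaving the transcript of a cation/H+ exchanger, stood at 18.6 and 23.4 RPM in ACL5 ktn1 and was seen in 4 and 0 reads in EN7 ktn1. Its log2 difference was 4.26 as deposited and 3.94 after rescaling. Since it passed the filter only where it was high, and could not be tested without either ACL5 ktn1 library, these values are given as a description. miR780.2 stood at 20.3 and 39.1 RPM in ACL5 ktn1 and at 1.69 and 0.785 RPM in EN7 ktn1. Its difference was 3.74 (SE 0.75, limma adjusted p = 0.017) and 3.34 after rescaling (SE 0.71, adjusted p = 0.022). Its call was lost without any 1 ktn1 library, at 0.056, 0.061, 0.072 and 0.13.

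Among miRNAs tied to nutrients, miR395 was higher in ACL5. It targets ATP sulfurylases and a sulfate transporter and is known for its induction under sulfate shortage. miR395b/miR395c/miR395f stood at 4665 and 2012 RPM in ACL5 ktn1 and at 481 and 435 RPM in EN7 ktn1. The layers did not overlap, and the difference was 7.29-fold (log2 2.74, SE 0.56, limma adjusted p = 0.017) and 5.11-fold after rescaling (2.24, SE 0.60, adjusted p = 0.045). Without a ktn1 library it gave 0.10, 0.020, 0.076 and 0.13 as deposited. The other miR395 entry had a difference of 1.83 (adjusted p = 0.059).

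The guides for copper proteins and for phosphate uptake did not pass the test. miR398b-3p/miR398c-3p, which targets copper/zinc superoxide dismutases, stood at 21548 and 25094 RPM in ACL5 ktn1 and at 6305 and 7945 RPM in EN7 ktn1. The replicates did not overlap, but the log2 difference of 1.72 (SE 0.93) did not pass (limma adjusted p = 0.23). Without either EN7 WT replicate it passed, at 0.020 and 0.020. miR408-3p, which targets plantacyanin and laccases, stood at 6918 and 3710 RPM against 958 and 606 RPM (difference 2.73, SE 0.84, adjusted p = 0.069). It passed as deposited without either EN7 WT replicate, at 0.024 and 0.022. All 4 tested members of the copper list, which include both arms of miR408, had differences above 0 (median 2.22, and 1.72 after rescaling). So did 58 of all 86 entries as deposited and 53 after rescaling, with medians of 0.91 and 0.44 over all entries. The copper list had 0 calls on either scale, beside 16.3% and 15.1% of all tested entries. The 2 tested phosphate members were below 0 (median -2.11, and -2.61 after rescaling), again with 0 calls. Of all 86 entries, 28 were below 0 as deposited and 33 after rescaling.

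miR399b/miR399c-3p, which targets the ubiquitin-conjugating enzyme PHO2, stood at 208 and 536 RPM in ACL5 ktn1 and at 1099 and 1513 RPM in EN7 ktn1 (difference -1.94, SE 0.84, limma adjusted p = 0.15). miR827, which targets NLA, showed how far the ACL5 replicates could part. It stood at 21.7 RPM in replicate 1 and 475 RPM in replicate 2, against 505 and 502 RPM in EN7 ktn1. Its difference was -0.08 from replicate 2 alone and -4.48 from replicate 1 alone, with adjusted p-values of 0.95 and 0.059.

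Of the silencing pathway's own miRNAs, the miR162 guide was higher in ACL5 as deposited. It targets DCL1, the enzyme that cuts miRNA hairpins. miR162a-3p/miR162b-3p stood at 45918 and 18343 RPM in ACL5 ktn1 and at 5966 and 5112 RPM in EN7 ktn1, with no overlap. The difference was 5.80-fold (log2 2.39, SE 0.58, limma adjusted p = 0.031). After rescaling it was 4.08-fold and no longer passed (1.89, SE 0.68, adjusted p = 0.10). With a ktn1 library left out, the deposited values gave 0.20, 0.028, 0.097 and 0.16. In WT the miR162 guide had a difference of -0.32 (adjusted p = 0.76).

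The 7 tested members of this list include both arms of the miR162, miR168 and miR403 hairpins, so they are not 7 separate regulators. Of these members, 1 was higher and 0 lower as deposited, beside 12.8% and 3.49% of all tested entries. After rescaling, 0 passed. All 7 had differences above 0 on both scales, as did 58 of all 86 entries as deposited and 53 after rescaling, with a median of 1.63 as deposited and 1.13 rescaled, beside 0.91 and 0.44 over all tested entries. miR168a-5p/miR168b-5p, which targets AGO1 itself, stood at 692 and 352 RPM in ACL5 ktn1 and at 354 and 70.6 RPM in EN7 ktn1, so the layers overlapped (difference 1.63, SE 0.86, limma adjusted p = 0.23). miR403-3p, which targets AGO2, stood at 3078 and 3651 RPM against 2775 and 863 RPM (difference 1.11, SE 0.71, adjusted p = 0.32). The level of AGO1 in each layer was not measured.

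Of the age pathway, in which miR156 and miR157 repress SPL transcription factors and miR172 represses AP2-like ones, 1 of 6 tested members was higher in ACL5 as deposited and 0 after rescaling, beside 12.8% and 9.3% of all tested entries. The 6 names joined as miR156a-5p stood at 2356 and 871 RPM in ACL5 ktn1 and at 364 and 152 RPM in EN7 ktn1. The layers did not overlap, and the difference was 6.26-fold (log2 2.60, SE 0.67, limma adjusted p = 0.037), or 4.62-fold after rescaling (2.10, SE 0.65, adjusted p = 0.083). The deposited values without a ktn1 library gave 0.20, 0.028, 0.072 and 0.20. The median of the list was 1.64, and 1.20 after rescaling.

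The 15 tested miRNAs of developmental transcription factors had a median of 0.76, and 0.25 after rescaling, below the medians of all entries. Of these, 1 was higher as deposited, miR169b-3p, from a hairpin of the family known for targeting NF-YA subunits. It reached the 10 RPM filter only in ACL5 libraries, so it entered the test only through the layer where it was high. After rescaling, 1 was higher (miR169b-3p) and 1 lower (miR396b-5p). Over all entries, 12.8% were higher as deposited, and 9.3% higher and 5.81% lower after rescaling. miR169b-3p stood at 17.8 and 23.9 RPM in ACL5 ktn1 and at 3.23 and 1.77 RPM in EN7 ktn1 (difference 2.66, SE 0.62, limma adjusted p = 0.029, and 2.23, SE 0.59, adjusted p = 0.045 after rescaling). It was called in 2 of the 8 fits that left out a library, and without a ktn1 library gave 0.12, 0.089, 0.085 and 0.16.

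miR396b-5p targets growth-regulating factors, and it was lower in ACL5 after rescaling only. It stood at 2600 and 3738 RPM in ACL5 ktn1 and at 9759 and 5124 RPM in EN7 ktn1, with no overlap on either scale. The difference was -1.18 as deposited (SE 0.49, limma adjusted p = 0.14) and -1.69 after rescaling (SE 0.41, adjusted p = 0.037). Without a ktn1 library the rescaled values were 0.21, 0.044, 0.23 and 0.11. miR396a-3p had the largest difference of any tested entry as deposited, and did not pass. It stood at 1114 and 36.3 RPM in ACL5 ktn1 and at 3.54 and 1.18 RPM in EN7 ktn1 (difference 6.02, SE 2.00, adjusted p = 0.083). Its difference was 3.57 from ACL5 replicate 2 alone and 8.47 from replicate 1 alone, with adjusted p-values of 0.39 and 0.043. Without either EN7 WT replicate it passed, at 0.024 and 0.022.

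miR164a/miR164b-5p, which targets NAC factors, stood at 612 and 1582 RPM in ACL5 ktn1 and at 488 and 140.2 RPM in EN7 ktn1 (difference 1.91, SE 0.79, limma adjusted p = 0.14). miR171b-3p/miR171c-3p, which targets the HAM transcription factors, stood at 14.5 and 26.4 RPM against 66.6 and 33.3 RPM (difference -1.22, SE 0.64, adjusted p = 0.22). Neither passed the test, and in both the layers did not overlap.

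The members of the auxin list (miR160, miR167, miR390, miR391 and miR393) gave 0 calls among 7 tested on both scales. Over all tested entries, 16.3% were called as deposited and 15.1% after rescaling. Their median difference was 0.056 as deposited and -0.43 after rescaling, so its sign depended on the scale. Its most abundant member, miR167c-3p, stood at 2278 and 1114 RPM in ACL5 ktn1 and at 527 and 439.8 RPM in EN7 ktn1, with no overlap (difference 1.72, SE 0.56, limma adjusted p = 0.082, and 1.22, adjusted p = 0.21, after rescaling). miR160a-5p and its copies, which target auxin response factors, stood at 271 and 608 RPM in ACL5 ktn1 and at 945 and 600.2 RPM in EN7 ktn1 (difference -0.89, SE 0.86, limma adjusted p = 0.45). The 5 tested triggers of phased siRNAs also gave 0 calls. Their medians, 0.056 and -0.43, are those of the auxin list because miR390a-5p/miR390b-5p is in both lists and is the median entry of each. That entry stood at 25.5 and 203.7 RPM in ACL5 ktn1 and at 177.8 and 27.1 RPM in EN7 ktn1. Among these triggers, miR173-5p starts the TAS1 and TAS2 pathways. It stood at 51.0 and 923 RPM in ACL5 ktn1 and at 2230 and 881 RPM in EN7 ktn1, an overlap (difference -2.68, SE 1.34, adjusted p = 0.21). The difference was -4.75 without ACL5 ktn1 replicate 2 (adjusted p = 0.028) and -0.60 without replicate 1.

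Of 13 tested miRNAs of the Brassicaceae lineage, the 2 miR780 entries were higher in ACL5 on both scales, miR780.1 with the limit on its filter given above, and 1, miR822-5p, was lower after rescaling. Over all tested entries, 12.8% were higher as deposited, and 9.3% higher and 5.81% lower after rescaling. The median was -0.22, and -0.73 after rescaling. miR822-5p (AT5G03552), which targets genes for DC1-domain proteins, stood at 17.7 and 52.7 RPM in ACL5 ktn1 and at 153 and 102 RPM in EN7 ktn1. The layers did not overlap (difference -1.99, SE 0.66, limma adjusted p = 0.083, and -2.48, SE 0.61, adjusted p = 0.037 after rescaling). Without a ktn1 library the rescaled values were 0.12, 0.0085, 0.20 and 0.15. miR163, whose targets are methyltransferases, stood at 1951 and 2142 RPM against 1005 and 745 RPM (difference 1.24, SE 0.42, adjusted p = 0.084).

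Outside the lists, 1 other entry was lower and 1 higher in ACL5. miR8182 (AT3G09615) stood at 3.96 and 3.95 RPM in ACL5 ktn1 and at 41.3 and 30.1 RPM in EN7 ktn1. Among the ktn1 libraries, only those of EN7, where it was high, reached the 10 RPM of the filter. miR8182 was 9.03-fold higher in EN7 (log2 -2.87, SE 0.52, limma adjusted p = 0.013) and 12.7-fold after rescaling (-3.30, SE 0.46, adjusted p = 0.0047). Without a ktn1 library the deposited values were 0.042, 0.028, 0.072 and 0.060. miR833a-5p stood at 26.4 and 21.8 RPM against 5.15 and 2.94 RPM, and was higher in ACL5 as deposited only (2.34, SE 0.56, adjusted p = 0.031, and 1.89, adjusted p = 0.094, after rescaling). Without a ktn1 library it gave 0.14, 0.059, 0.076 and 0.16.

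**Figure D4:**
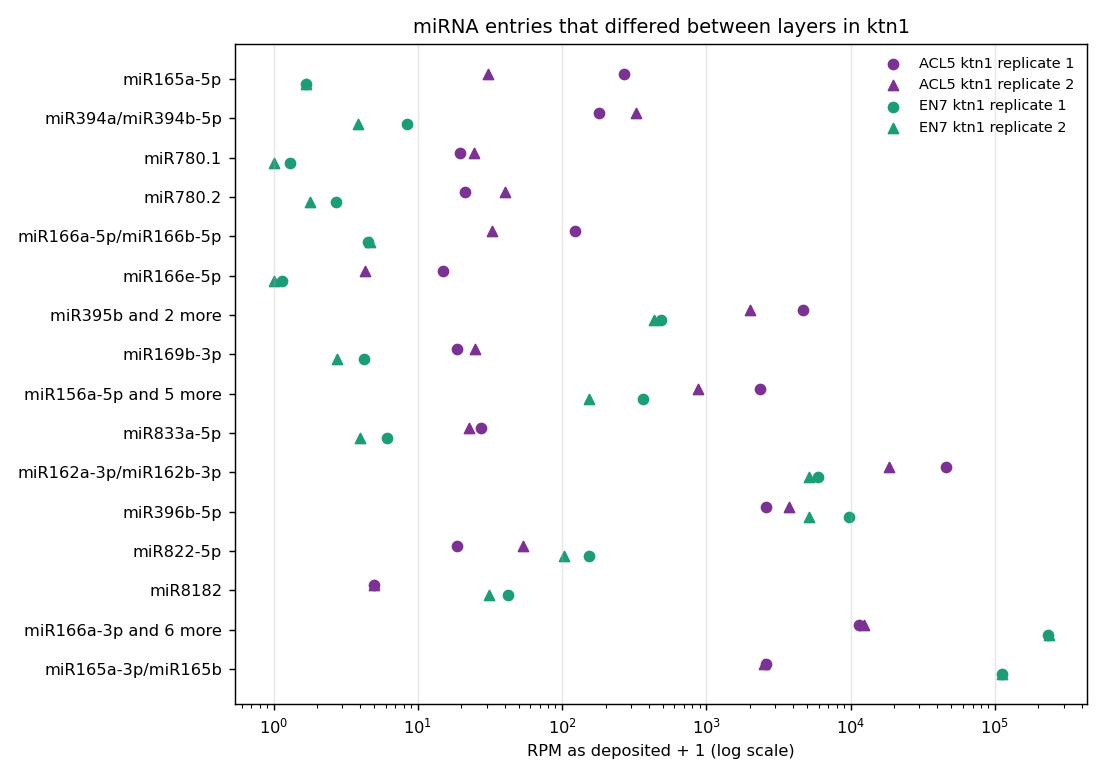
For the 16 entries called on either scale, the deposited RPM + 1 (log scale) is shown in each of the 4 ktn1 libraries, with purple for ACL5, green for EN7, circles for replicate 1 and triangles for replicate 2. Purple and green symbols do not overlap in any row. They are widest apart for miR394a/miR394b-5p, the miR165/miR166 guides and miR165a-5p.

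The most abundant guides other than miR165/miR166 and miR162 did not pass the test. miR159a stood at 92800 and 78497 RPM in ACL5 ktn1 and at 64163 and 66861 RPM in EN7 ktn1. Its difference was 0.38 as deposited (SE 0.31, limma adjusted p = 0.38) and -0.12 after rescaling (SE 0.28, adjusted p = 0.72), so its sign depended on the scale. miR158a-3p stood at 50248 and 59640 RPM against 99414 and 41016 RPM, an overlap (-0.22, SE 0.40, adjusted p = 0.66, and 0.58 where all miRNA sums were made equal).

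miR159b-3p stood at 42082 and 54808 RPM in ACL5 ktn1 and at 23991 and 33669 RPM in EN7 ktn1 (0.76, SE 0.35, limma adjusted p = 0.19). miR319a/miR319b, which targets TCP transcription factors, stood at 11406 and 29287 RPM against 11175 and 11970 RPM (0.66, SE 0.63, adjusted p = 0.45). Its difference was -0.02 without ACL5 ktn1 replicate 2. miR161.1, which targets PPR genes, stood at 10973 and 8433 RPM against 7967 and 3485 RPM (0.87, SE 0.57, adjusted p = 0.32).

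Summed by miRNA number, 6 of 56 families differed as deposited (10.7%, limma, adjusted p under 0.05). miR162, miR394, miR395 and miR780 were higher in ACL5 (7.14%) and miR165/miR166 and miR8182 lower (3.57%). After rescaling, 4 did (7.14%): miR394 and miR780 higher, miR165/miR166 and miR8182 lower. The miR394 family is the entry miR394a/miR394b-5p alone, and the miR780 sum includes miR780.1. The limits on the filter given above for these entries therefore apply to the miR394 call and in part to the miR780 call. The miR395 family lost its call by rescaling (difference 2.14, SE 0.62, adjusted p = 0.079), although 1 of its entries kept it. Without 1 ktn1 library at a time, in the order above, 4, 8, 3 and 4 families were called as deposited and 4, 11, 4 and 1 after rescaling. Without an EN7 WT replicate, 15 and 15 were called as deposited and 16 and 15 after rescaling.

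Whether a layer difference belongs to ktn1 was asked by the same comparison in WT and by the test of the difference between both. On the rescaled values, 2 of 86 entries had a layer difference in ktn1 that differed from that in WT (2.33%, limma, adjusted p under 0.05), and 6 at an unadjusted p under 0.05. Both were miR165/miR166 guides. The miR165 guide differed between layers by -5.95 in ktn1 and -2.18 in WT, a further -3.77 (adjusted p = 0.0024). The miR166 guide differed by -4.80 in ktn1 and -1.37 in WT, a further -3.42 (adjusted p = 0.0024). For the summed family the further difference was -3.54 (SE 0.39, adjusted p = 0.001). The partner to guide ratio of the family also differed more in ktn1, by 7.16 (SE 1.38, adjusted p = 0.022). Without ACL5 ktn1 replicate 2, 5 entries passed this test, and 2 did in each fit without another of the 8 libraries.

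Outside the family, layer differences in ktn1 and WT went together across entries. On the rescaled values the Pearson correlation across the 81 tested entries was 0.80 and the Spearman correlation 0.78, and 67 of 81 had the same sign. Entries are not independent replicates, and the groups share no library. All 13 called entries, the guides included, had the same sign in WT, and 4 of them were also called there. miR394a/miR394b-5p differed by 4.95 in ktn1 and 4.50 in WT (difference 0.46, limma adjusted p = 0.98). miR8182 differed by -3.30 and -2.35 (difference -0.95, adjusted p = 0.98). The miR162 guide had 1.89 in ktn1 and -0.40 in WT, but this difference of 2.29 did not pass (adjusted p = 0.70). For miR827, with -2.77 in ktn1 and 1.97 in WT, the difference of -4.75 did not pass either (adjusted p = 0.70).

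**Figure D5:**
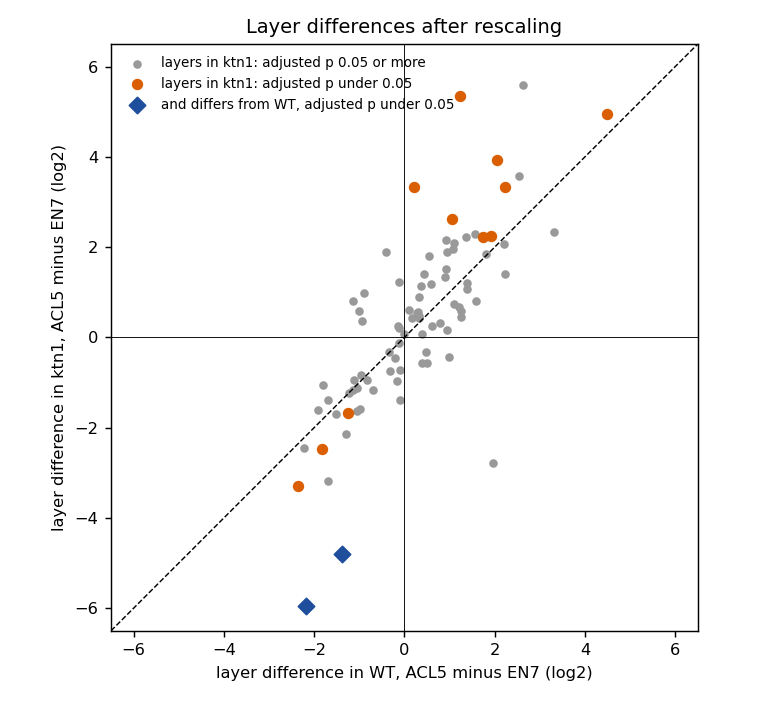
Each point is 1 of 86 tested entries after rescaling, with the log2 layer difference (ACL5 minus EN7) in WT on the x axis and in ktn1 on the y axis, and the dashed diagonal marks equal differences. Most points follow the diagonal, and the 2 miR165/miR166 guides, at -5.95 and -4.80 in ktn1, lie well below it.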

How the data were processed

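Small RNA libraries were prepared with a NEBNext kit, per the labels' protocols. The authors deposited 1 file of RPM values per library. cutadapt and Bowtie, with the TAIR10 build, are named per the submitters' processing notes. Read length, mismatches, miRNA annotation and the reads counted in the RPM denominator are not given in the sources used here. In each file, 100% of values were whole multiples of the lowest, within 0.01 reads, so the lowest was taken as 1 read. These read numbers are inferred, no count test was run, and the floor of 3 reads covers counting error only. Entries absent from a file were set to 0. All 300 miRNA names matched gene symbols of RefSeq TAIR10.1, used for locus tags.

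Entries at 10 RPM or more in at least 2 of the 8 AGO1 libraries were tested: 86, of which 84 reached 10 RPM in a ktn1 library. A further 106 entries above 0 in ktn1 were not tested. Values were analysed as log2(RPM + 1), so differences of low entries are understated. limma 3.58.1 (R 4.3.3) fitted 1 mean for each of 4 groups of 2 libraries, with a mean-variance trend and a two-sided test. p-values were adjusted by Benjamini-Hochberg over all entries or families tested, with a threshold of 0.05. For rescaling, each library was multiplied so that its sum outside miR165/miR166 equalled the mean of the 8. A family's guide arm is the more abundant one in the 14-day-old WT seedlings. The script was tested on simulated data. Python 3.11.15, pandas 2.3.3, NumPy 2.4.6 and matplotlib 3.10.9 were also used.

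Named entries are those called as deposited, the 12 largest called after rescaling, every tested miR165/miR166 entry, those with a group mean of 10000 RPM or more, and the most abundant member of each list. miR396b-5p, miR396a-3p, miR827, miR408-3p, miR168a-5p, miR403-3p, miR164a, miR171b-3p, miR160a-5p, miR173-5p and miR163 were added after their values were seen. Lists were made by miRNA number, so entries from both arms of a hairpin count as members. The comparison, lists and tests were chosen with earlier results of these data known. The labels do not say whether replicate numbers pair the libraries. Deviations of replicate 1 from its group mean correlated at 0.013 across entries between ACL5 ktn1 and EN7 ktn1. With 2 replicates a group, replicate 2 mirrors replicate 1, so this single value cannot exclude pairing. Alternatives were other filters, pseudocounts and scalings, the 4 ktn1 libraries alone, no trend, a replicate block and leaving out each library.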

Additional observations from a re-analysis of the deposited data

Results flagged for a closer look

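The layer difference of the miR165/miR166 guides was larger in ktn1 than in WT by the test of that difference itself. On the rescaled values, the log2 layer difference (ACL5 minus EN7) in ktn1 minus that in WT was -3.77 for the miR165 guide and -3.42 for the miR166 guide. For the summed miR165/miR166 family it was -3.54. The log2 ratio of partner to guide arm of the family had a layer difference that was 7.16 larger in ktn1 than in WT. The layer difference of the 2 guides in ktn1 was called in all 8 fits that left out 1 library. Groups of 2 libraries are too small to test a single library as an outlier.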

How the results depend on the processing

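The summed family of miR165/miR166 kept its direction and call under every alternative. Its difference lay between -4.58 and -4.52 on the deposited scale and between -5.27 and -4.84 on the rescaled one. The scalings that replace either scale gave -4.89 for the median of ratios and -3.74 for equal sums over all miRNAs. Counts of calls moved more. With equal sums over all miRNAs, which includes miR165/miR166, 33 entries and 19 families were called from either scale. The 4 ktn1 libraries alone gave 8 rescaled entries. Leaving out each of the 8 libraries gave 2 to 21 entries as deposited, 2 to 20 rescaled, 3 to 15 families as deposited, 1 to 16 rescaled, 1 to 2 arm ratios and 2 to 5 differences from WT. Without a filter, 2 arm ratios were called. The layer difference of the summed miRNA RPM was -0.81. It was 0.50 without miR165/miR166, -0.083 without the highest entry and -0.88 to -0.73 with a library left out.

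The replicate block gave 16 entries as deposited, 15 rescaled, 9 and 5 families, 1 arm ratio, 2 differences from WT, a family difference of -4.55 and -5.05, and a summed difference of -0.81. Whether the replicate numbers pair the libraries is not given in the labels.

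Signs turned for entries that had not been called. Equal sums gave 0.58 for miR158a-3p and 1.19 for miR159a, which then passed (limma adjusted p = 0.012), and the median of ratios gave 0.040 for miR159a rescaled. With a library left out, the deposited range was -0.86 to 0.42 for miR158a-3p and -0.020 to 1.34 for miR319a/miR319b. The rescaled range was -0.36 to 0.11 for miR159a, -0.20 to 0.70 for miR159b-3p, -0.027 to 0.76 for miR161.1, -0.53 to 0.85 for miR319a/miR319b (-0.10 without EN7 ktn1 replicate 1) and -0.026 to 1.25 for miR403-3p. The cause was not tested.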

Other observations

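Some low entries were seen in 1 layer only. The files differ in what they list: 17 entries are listed in ACL5 files only and 12 in EN7 files only. A 0 here can therefore stand for an entry absent from a file. In ktn1, 11 entries were above 0 in both ACL5 replicates and 0 in both EN7 replicates, and 7 the other way. The highest of these values was 3.31 RPM, for miR851-5p in ACL5 replicate 2, which stood at 0.550 RPM in replicate 1. miR5648-5p stood at 1.76 and 1.28 RPM in the ACL5 ktn1 replicates and was listed at 0 in both EN7 ktn1 replicates. In the other direction, miR5638a stood at 1.54 and 0.392 RPM in the EN7 ktn1 replicates. None of the 18 was tested, since none reached 10 RPM in at least 2 of the 8 AGO1 libraries.

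miR168 was also present mainly as the 5p arm in these libraries, at 96.8% and 97.4% of the family in ACL5 ktn1 and 98.1% and 97.2% in EN7 ktn1. In the total small RNA of 14-day-old WT seedlings that arm held 45.2% and 46.9%. The test of arm ratios, which takes the guide arm from these seedlings, therefore counted the 5p arm of miR168 as the partner.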
